A study of Mus musculus with 8 samples.

Results

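Pisd, its annotated copies and the genes at the Sfi1 locus are described here in mouse retina. The 7 gene names were Pisd, Pisd-ps1, Pisd-ps2, Pisd-ps3, AC149090.1, Sfi1 and Gm11399. They were chosen by name, with the difference between the treatment groups already known for some of them. Of the 7 names, 6 had a row among the 54532 genes of the deposited count table, and Pisd-ps3 had none. All 6 were among the 17004 genes with enough counts to be tested.

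RNA sequencing of poly(A)-selected RNA gave 8 libraries from retina, the light-sensing nervous tissue of the eye, with 150-base paired-end reads. In 4 libraries the label was sIVs, which the series title gives as small intracellular vesicles, and in the other 4 it was PBS, the control. Both groups were numbered 1, 3, 4 and 5. The labels named no strain, genotype, age, dose, route or time for either group, and did not say whether the libraries came from separate animals, so an error below measures only the spread between these libraries.

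Pisd encodes phosphatidylserine decarboxylase, an enzyme of the inner mitochondrial membrane that converts phosphatidylserine to phosphatidylethanolamine. Phosphatidylethanolamine is a major membrane lipid and is abundant in the disc membranes of photoreceptor outer segments. Sfi1 encodes a centrin-binding protein of the centrosome. Pseudogenes are copies of a gene that are annotated as not making its full protein, and an antisense gene is transcribed from the strand opposite to another gene.

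Pisd (ENSMUSG00000023452) lay at chr5:32736301-32785646 on the minus strand in mm10. Pisd-ps1 (ENSMUSG00000082286) lay at chr11:3125904-3131004 on the plus strand, and Pisd-ps2 (ENSMUSG00000023795) at chr17:3076578-3084183 on the minus strand. The stretch shown for these 3 genes comes from the coding sequence of Pisd and from its counterparts in the pseudogenes, because it holds the longest run of letters that all 3 shared, 81 bases. It covers chr5:32739188-32739307, chr11:3128995-3129114 and chr17:3079406-3079525, and capitals mark letters of a pseudogene that differ from Pisd, 2 in Pisd-ps1 and 1 in Pisd-ps2.
Pisd: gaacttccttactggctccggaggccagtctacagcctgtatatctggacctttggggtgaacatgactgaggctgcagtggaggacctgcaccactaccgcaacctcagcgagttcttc
Pisd-ps1: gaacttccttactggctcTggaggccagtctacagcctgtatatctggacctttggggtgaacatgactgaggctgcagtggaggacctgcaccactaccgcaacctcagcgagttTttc
Pisd-ps2: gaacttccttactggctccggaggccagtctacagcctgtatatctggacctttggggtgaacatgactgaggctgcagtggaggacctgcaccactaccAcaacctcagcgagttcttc

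Sfi1 (ENSMUSG00000023764) lay at chr11:3131850-3193463 on the minus strand. Gm11399 (ENSMUSG00000087111), annotated as antisense, lay inside it at chr11:3142048-3143363 on the plus strand. The third exon of Gm11399, at chr11:3143180-3143363, is shown because 77 of its 184 bases, in capitals, lie opposite a coding exon of Sfi1.
Gm11399 exon 3: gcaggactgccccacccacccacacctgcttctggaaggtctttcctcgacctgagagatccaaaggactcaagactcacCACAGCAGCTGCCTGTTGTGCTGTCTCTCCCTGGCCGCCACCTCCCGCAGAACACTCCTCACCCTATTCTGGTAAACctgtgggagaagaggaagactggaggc

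AC149090.1 (ENSMUSG00000095041), annotated as protein coding, lay on the unplaced scaffold JH584304.1 from 52190 to 59690 on the minus strand. It was the only gene of the count table on that scaffold. In the RefSeq table, Pisd-ps3 runs from 52674 to 59689 on a scaffold without a name, and all 7016 of its bases fall between the same start and end numbers as AC149090.1. The longest coding sequence of AC149090.1 in GENCODE M21 spans 438 bases, 146 codons, against 1218 bases and 406 codons for Pisd. Coding bases make up 10.3% of the 4238 exon bases of AC149090.1 and 25.0% of the 5750 exon bases of Pisd. Its transcript sequence was not analysed here, so its likeness to Pisd was not measured, and it is counted below among the Pisd copies only because it was listed with them.

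The 2 chromosomal loci had a like arrangement. On chromosome 11, Pisd-ps1 and Sfi1 point toward each other, with 845 bases between their ends in GENCODE M21, whereas the longer RefSeq interval of Pisd-ps1 overlaps Sfi1 by 96 bases. On chromosome 5, Pisd and Gm2420 also point toward each other, with 106 bases between their ends in GENCODE M21. Gm2420 is a transcribed pseudogene that matched Sfi1 on the same strand at 93.9% identity over 2266 bases. Transcripts of Pisd and Sfi1 themselves matched on opposite strands over 93 bases, at 98.9% identity.

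Levels of different genes were compared as FPKM, the authors' deposited values per kilobase of gene length and per library total. In PBS retinas AC149090.1 stood highest at 59.5 ± 14.1 FPKM (SD, n = 4), followed by Sfi1 at 8.40 ± 1.29 FPKM (SD, n = 4) and Pisd-ps1 at 6.49 ± 0.229 FPKM (SD, n = 4). Gm11399 stood at 4.20 ± 2.07 FPKM, Pisd at 1.70 ± 0.203 FPKM and Pisd-ps2 at 1.53 ± 0.255 FPKM (SD, n = 4 each). The PBS ranges of Pisd-ps1 and Gm11399 overlapped, as did those of Pisd and Pisd-ps2, and the other neighbours in this order did not overlap. Per length as deposited, the gene of the mitochondrial enzyme was lower than AC149090.1 and Pisd-ps1. Of its 1437 coding bases, 1153 also lie in exons of the gene model Gm20671, and how such reads were counted is not given.

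In sIVs retinas the levels were 27.7 ± 6.34 FPKM for AC149090.1, 6.18 ± 0.898 FPKM for Sfi1 and 3.92 ± 1.20 FPKM for Pisd-ps1 (SD, n = 4 each). Pisd followed at 1.82 ± 0.391 FPKM, Pisd-ps2 at 1.14 ± 0.464 FPKM and Gm11399 at 0.842 ± 0.327 FPKM (SD, n = 4 each). Gm11399 thus stood above Pisd in PBS retinas and last of the 6 in sIVs retinas, where its range overlapped that of Pisd-ps2. FPKM divides by the whole listed length, which is only 324 bases for Gm11399.

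**Figure D1:**
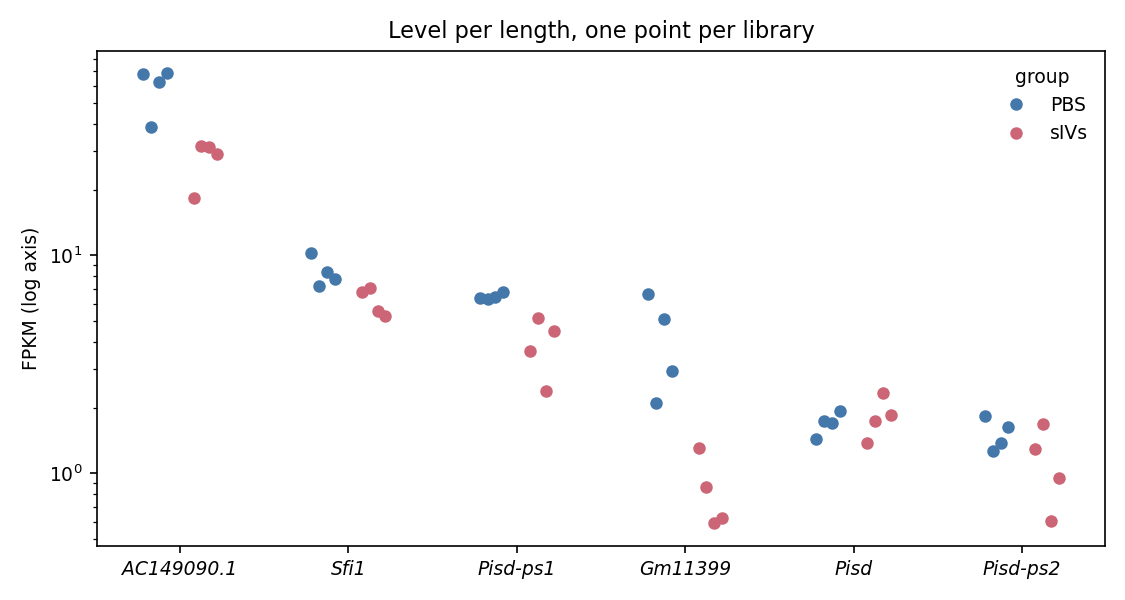
Level per length of the 6 genes, in FPKM on a log axis, with 1 point for each library (blue, PBS, n = 4; red, sIVs, n = 4). AC149090.1 lies above every other gene in all 8 libraries, from 18.4 to 68.5 FPKM, and Pisd lies between 1.38 and 2.33 FPKM.

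The groups were compared for 1 gene at a time as CPM, counts scaled to the normalized library size. No gene of the 17004 passed the edgeR quasi-likelihood test at an adjusted p of 0.05 (0% called, lowest adjusted p = 0.81), and 255 had an unadjusted p below 0.05 (1.5%). Of the 6 genes with a row, 4 had lower CPM in every sIVs library than in any PBS library, against 0.929% of all genes tested. Among these 4, Gm11399 passed the count filter through its PBS libraries alone. Since the 6 genes were chosen with the group difference known, their values, standard errors and intervals for it are a description. An interval that leaves out 0 is not a test of a gene chosen in this way. In bulk retina, fewer cells of a type and less RNA per cell cannot be told apart.

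Pisd, the gene of the enzyme, had 8.39, 10.1, 9.94 and 11.3 CPM in PBS libraries 1, 3, 4 and 5. It had 8.10, 10.2, 13.8 and 10.9 CPM in sIVs libraries 1, 3, 4 and 5. The groups overlapped, with the lowest value in sIVs library 1 and the highest in sIVs library 4. The means were 9.93 ± 1.18 and 10.7 ± 2.34 CPM (SD, n = 4 each), a log2 difference of 0.11 ± 0.19 (SE, 95% confidence interval -0.31 to 0.54). Without sIVs library 4 the log2 difference was -0.03.

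Pisd-ps1, the copy beside Sfi1, had 11.4, 11.3, 11.5 and 12.2 CPM in the PBS libraries. It had 6.52, 9.23, 4.32 and 8.11 CPM in the sIVs libraries. The PBS libraries lay close together, every sIVs library was lower, and sIVs library 4 was the lowest. The means were 11.6 ± 0.390 and 7.05 ± 2.13 CPM (SD, n = 4 each), a log2 difference of -0.72 ± 0.23 (SE), and without sIVs library 4 it was -0.54.

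Pisd-ps2, the copy on chromosome 17, had 3.93, 2.72, 2.96 and 3.49 CPM in the PBS libraries. It had 2.79, 3.62, 1.31 and 2.06 CPM in the sIVs libraries. The groups overlapped, since sIVs libraries 1 and 3 lay within the PBS range. The means were 3.27 ± 0.544 and 2.45 ± 0.990 CPM (SD, n = 4 each), a log2 difference of -0.42 ± 0.32 (SE, 95% confidence interval -1.14 to 0.30). It was -0.21 without sIVs library 4 and -0.67 without sIVs library 3.

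AC149090.1, the gene on the unplaced scaffold, had 294, 167, 269 and 294 CPM in PBS libraries 1, 3, 4 and 5. It had 79.5, 137, 137 and 127 CPM in sIVs libraries 1, 3, 4 and 5. PBS library 3 lay nearest to the sIVs libraries, of which library 1 was the lowest, and the groups did not overlap. Sequencing depth was ample for this gene, which had 1109 to 4892 counts per library and ranked 963 of 17004 by mean CPM. Against the 2523 genes whose level was within 2-fold of its own, its spread within groups was larger than that of 84.8%. The log2 difference was -1.09 ± 0.23 (SE), and it was -0.94 without sIVs library 1 and -1.25 without PBS library 3.

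Sfi1, the centrosomal gene, had 78.5, 55.8, 64.4 and 59.4 CPM in the PBS libraries. It had 52.7, 54.4, 43.2 and 40.8 CPM in the sIVs libraries. The highest sIVs library, 54.4 CPM, and the lowest PBS library, 55.8 CPM, were close to each other, so the groups were barely apart. The means were 64.5 ± 9.93 and 47.8 ± 6.77 CPM (SD, n = 4 each), a log2 difference of -0.43 ± 0.14 (SE), and -0.33 without PBS library 1.

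Gm11399, the antisense gene within Sfi1, rested on few reads. Its counts were 29, 12, 25 and 16 in the PBS libraries and 6, 4, 3 and 3 in the sIVs libraries. As CPM these were 2.19, 0.694, 1.68 and 0.963 in PBS and 0.430, 0.284, 0.196 and 0.206 in sIVs retinas. Every sIVs library was lower than every PBS library. The log2 difference of -2.27 ± 0.48 (SE, 95% confidence interval -3.35 to -1.19) was the lowest of the 17004 genes tested. Gm11399 passed the count filter through its PBS libraries alone, so this rank is set in part by the filter.

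Pooled over libraries, Gm11399 had 82 counts in PBS and 16 in sIVs retinas, a depth-corrected ratio of 0.209 with an exact 95% interval of 0.114 to 0.360 that covers counting error only. The library protocol marks strand, but whether counting used strand is not given in the sources used here. Without it, reads from the 77 bases opposite the Sfi1 exon, 23.8% of the length of Gm11399, cannot be told apart from Sfi1 reads. The rest of Gm11399 also lies inside Sfi1, though opposite no exon of it. Reads of unspliced Sfi1 RNA could be counted there as well, and their part was not tested. Sfi1 had 593 to 1038 counts per library.

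**Figure D2:**
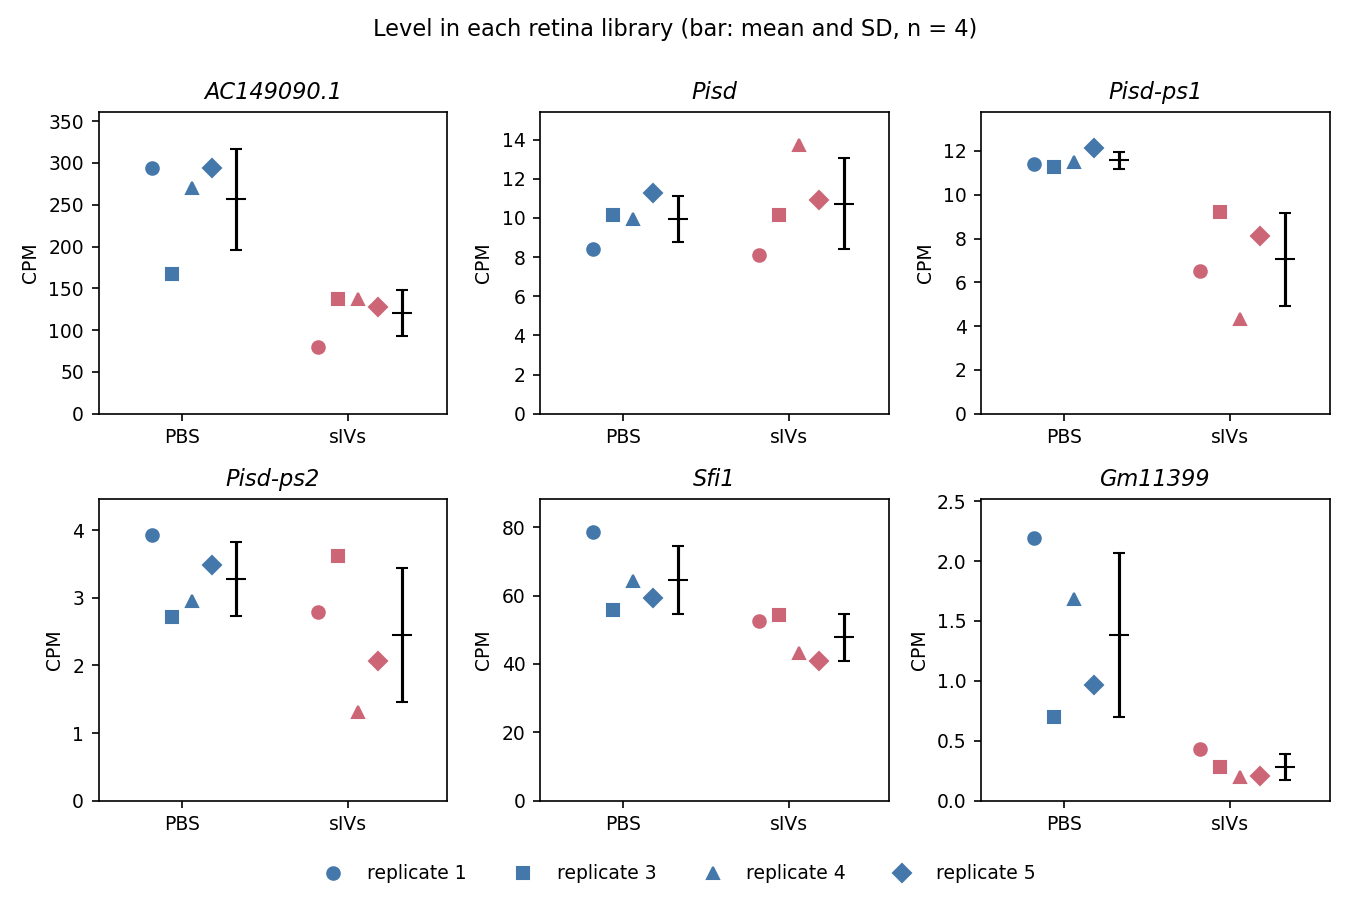
CPM of each of the 6 genes in each library, with symbols for replicates 1, 3, 4 and 5 and bars for the mean and SD (n = 4 per group); each panel has its own axis from 0. The groups do not overlap for AC149090.1, Pisd-ps1, Sfi1 and Gm11399, and overlap for Pisd and Pisd-ps2.

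Reads can be divided among near-identical copies in more than 1 way, so the 4 listed Pisd copies with a row were also summed, AC149090.1 included. A sum does not bring back reads left out of the counts for matching several copies, and how such reads were counted is not given. The sum was 318, 191, 294 and 321 CPM in PBS libraries 1, 3, 4 and 5. It was 96.9, 160, 156 and 148 CPM in the sIVs libraries. PBS library 3 was again the lowest of its group and sIVs library 1 the lowest of all, and the groups did not overlap. The log2 difference of the sum was -0.999, with a within-group SD of 0.35, and without AC149090.1 it was -0.30.

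AC149090.1 made up most of the summed counts in every library. Its share was 92.5%, 87.4%, 91.7% and 91.6% in the PBS libraries, and 82.0%, 85.6%, 87.6% and 85.8% in the sIVs libraries. The lowest share, in sIVs library 1, had an exact 95% Clopper-Pearson interval of 79.9% to 84.0%, and the highest, in PBS library 1, one of 91.7% to 93.3%; both cover counting error only, and shares within a group varied more than that. The groups overlapped only through PBS library 3 and sIVs library 4. Mean shares were 90.8% ± 2.32 and 85.3% ± 2.33 (SD, n = 4 each).

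The other 3 copies together held 24.8 ± 1.43 CPM in the PBS group (SD, n = 4) and 20.2 ± 2.39 CPM in the sIVs group (SD, n = 4). Per length, AC149090.1 was 35.5 ± 10.3 times as high as Pisd in PBS and 15.2 ± 2.35 times as high in sIVs retinas (SD, n = 4 each). This ratio ran from 22.4 to 47.5 in the PBS libraries and from 13.3 to 18.3 in the sIVs libraries.

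**Figure D3:**
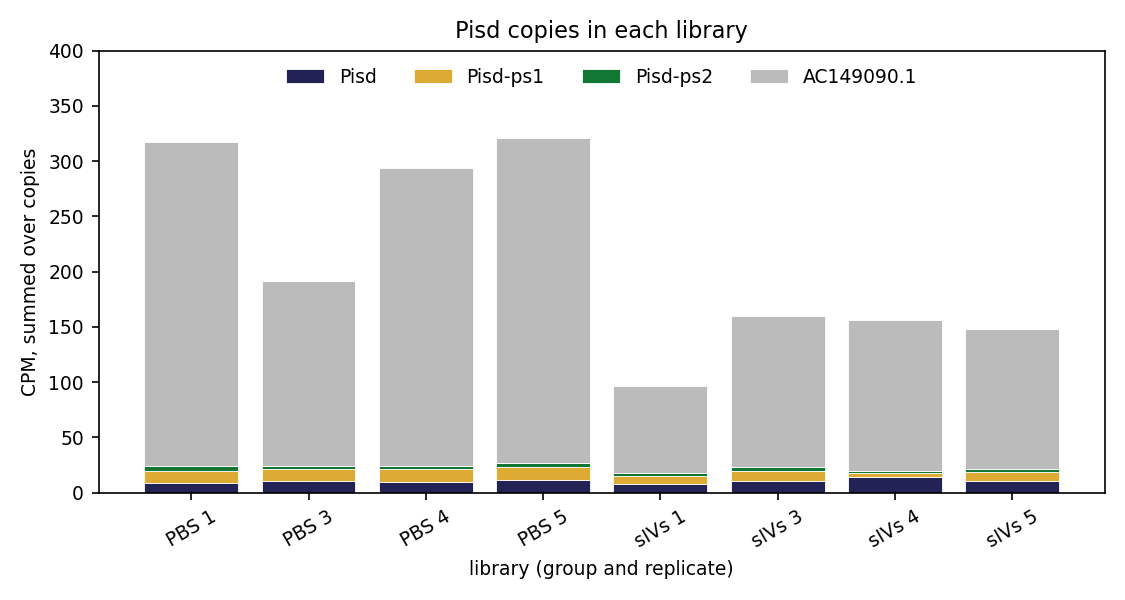
Summed CPM of the 4 Pisd copies in each library, stacked by copy (dark blue, Pisd; yellow, Pisd-ps1; green, Pisd-ps2; grey, AC149090.1). AC149090.1 fills 82.0% to 92.5% of each bar, and the bars run from 96.9 CPM in sIVs library 1 to 321 CPM in PBS library 5.

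How much sequence the genes share was measured on the GENCODE M21 transcripts, independently of the counts. Pisd and Pisd-ps1 aligned at 94.1% identity over 1128 bases, with a longest identical run of 97 bases. Pisd and Pisd-ps2 aligned at 94.1% over 1071 bases, with a run of 139 bases, and the 2 pseudogenes aligned with each other at 94.8% over 1061 bases. No identical run reached the read length of 150 bases.

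Of the 7129 different 150-base windows of Pisd transcripts, 0 occurred in another of the 5 genes with a sequence, and the same held for Pisd-ps1, Pisd-ps2, Sfi1 and Gm11399. At 75 bases, 2.17% of the windows of Pisd, 2.60% of those of Pisd-ps1 and 4.64% of those of Pisd-ps2 occurred in another of these genes. Windows were compared on the transcript strand only. Left out are identical runs of 82 bases on opposite strands, between Pisd and Sfi1 and between Sfi1 and Gm11399. At 31 bases the shares were 9.68%, 27.7% and 22.6%. A full-length read without errors therefore had a single match among these 5 genes, whereas shorter matches did not always.

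Pisd shared sequence with a gene outside the group. The gene model Gm20671 overlaps 1156 exon bases of Pisd on the same strand and holds 14.2% of its 150-base windows. Gm20671 had 0 counts in all 8 libraries. Whether reads lying in both genes were left out of the counts is not given. It bears on the level of Pisd, and on the share and ratio of AC149090.1, and was not tested. Sfi1 shares 167 exon bases with Drg1 on the same strand, but only 0.175% of its 150-base windows.

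Genes beside these loci were taken within 500 kb. Around Sfi1, 17 of 31 neighbours were tested, 0 were called, 6 had a positive and 11 a negative log2 difference, and the median was -0.08. None of the 17 separated the groups. Drg1, a GTP-binding protein gene at the edge of Sfi1, averaged 58.2 CPM in PBS against 66.9 CPM in sIVs libraries (log2 difference 0.20 ± 0.18 SE). Eif4enif1, a translation regulator gene with a start site 8.93 kb from that of Sfi1, stood at 63.7 and 60.1 CPM (log2 difference -0.08 ± 0.09 SE). Gm11400, a gene inside Sfi1 without shared exon bases, had a log2 difference of -0.12 ± 0.65 (SE).

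Around Pisd, 13 of 34 neighbours were tested, with 6 positive and 7 negative log2 differences and a median of -0.06. Gm2420, the Sfi1-like pseudogene at the end of Pisd, stood at 1.62 and 1.55 CPM (log2 difference -0.06 ± 0.37 SE), and Prr14l on the other side at 59.6 and 50.9 CPM (log2 difference -0.23 ± 0.22 SE), with 28.2 to 63.8 CPM in the sIVs libraries. Around Pisd-ps2, 7 of 20 were tested, with a median of -0.06. Its nearest tested neighbour on each side, the pseudogenes Gm10232 and AC110534.5, had log2 differences of -0.08 ± 0.31 and 0.12 ± 0.18 (SE). On other scaffolds, either unplaced or without a set position within a chromosome, 6 of 85 genes were tested. Their median log2 difference was 0.01, with a range of -0.16 to 0.44. The median of all genes tested was 0.01.

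**Figure D4:**
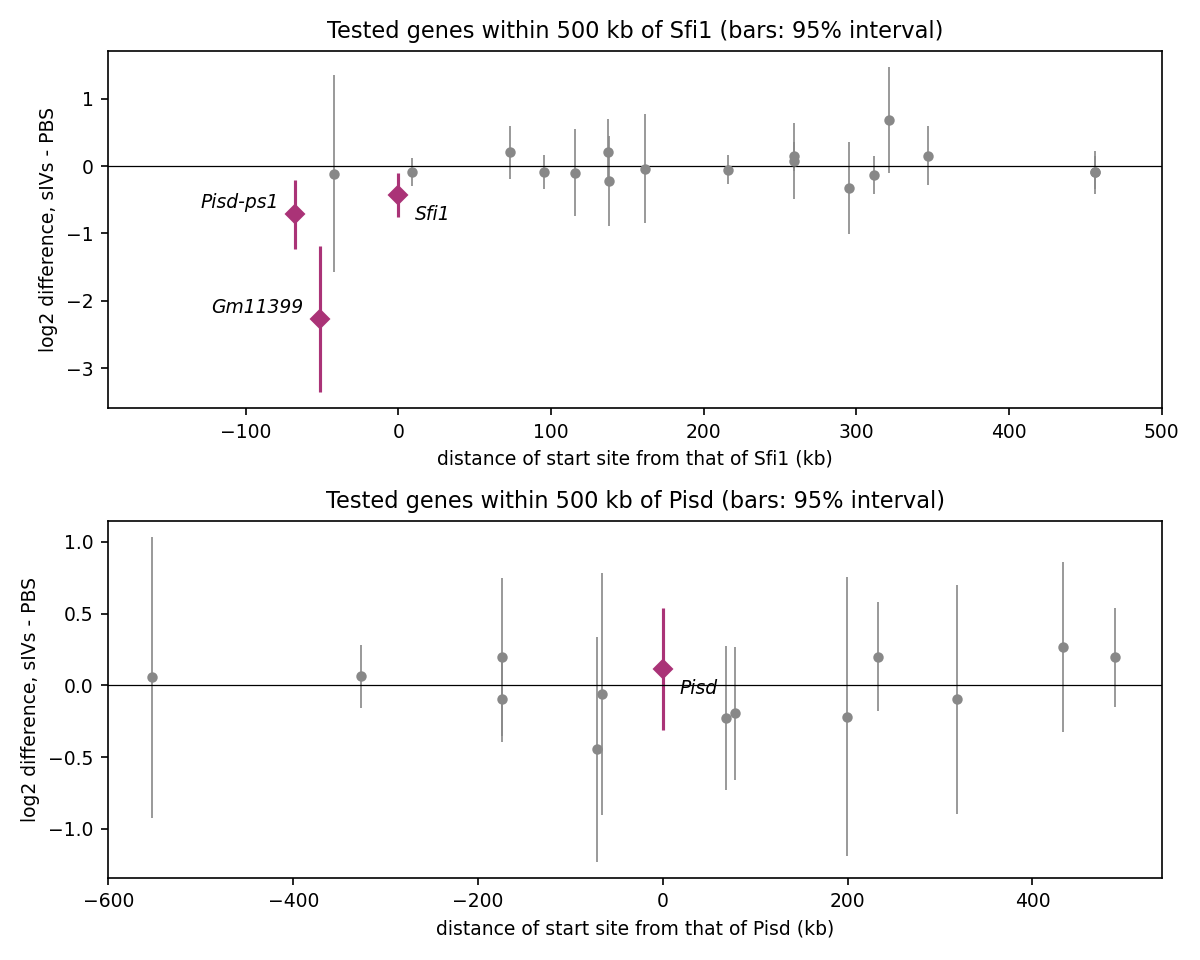
Log2 difference between groups (sIVs minus PBS, points with 95% confidence intervals) against the distance of start sites in kilobases, around Sfi1 (top) and Pisd (bottom). Around Sfi1, the points of Gm11399 at -2.27, Pisd-ps1 at -0.72 and Sfi1 at -0.43 (purple) lie below those of the grey neighbours, which run from -0.33 to 0.69. The purple genes were chosen with the group difference known, and the interval of Sfi1 overlaps those of neighbours. Pisd lies at 0.11 among neighbours from -0.45 to 0.27.

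Other genes of phosphatidylethanolamine and phosphatidylserine metabolism were described as a list of 15. It was broader than synthesis of these 2 lipids. It also held Pcyt1a, Pcyt1b, Chpt1 and Chkb of phosphatidylcholine synthesis, and Pemt, Etnppl and Phospho1, which act on phosphatidylethanolamine or on phosphorylated head groups. Of 14 tested, 0 were called, 8 had a positive and 6 a negative log2 difference, and the median was 0.07. Etnk1, an ethanolamine kinase, had the highest CPM of the list at 398 in PBS and 365 in sIVs retinas (log2 difference -0.12 ± 0.14 SE). Chka, a choline kinase, stood at 88.5 and 84.1 CPM (log2 difference -0.07 ± 0.10 SE). Pcyt2, of the cytidine diphosphate-ethanolamine route that makes phosphatidylethanolamine outside mitochondria, stood at 57.0 and 67.2 CPM (log2 difference 0.24 ± 0.17 SE). Etnk2, another ethanolamine kinase, stood at 1.95 and 2.98 CPM (log2 difference 0.61 ± 0.29 SE). Library 4 of the sIVs group carried part of these values: without it 6 were positive and 8 negative with a median of -0.02, and the log2 difference was 0.03 for Pcyt2, -0.01 for Etnk1 and 0.48 for Etnk2.

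Genes of mitochondrial phospholipid transport and of cardiolipin, the lipid typical of the inner mitochondrial membrane, formed a list of 22, all tested. None was called, 13 had a positive and 9 a negative log2 difference, and the median was 0.05. Taz, the cardiolipin remodelling enzyme tafazzin, was the only one whose groups did not overlap, with 60.8 CPM in PBS against 68.4 CPM in sIVs libraries, beside 1.08% of all genes tested that were higher in every sIVs library; it was named after its values were seen. Triap1, part of a lipid transfer complex between the mitochondrial membranes, stood at 13.6 and 18.03 CPM (log2 difference 0.40 ± 0.18 SE). Stoml2, a cardiolipin-binding protein of the inner membrane, stood at 33.9 and 46.2 CPM (log2 difference 0.45 ± 0.22 SE). The cytidine diphosphate-diacylglycerol synthases Cds1 and Cds2 had the highest CPM, with log2 differences of 0.04 ± 0.16 and -0.20 ± 0.17 (SE). Stoml2 had 71.6 CPM in sIVs library 4 and 34.9 to 42.4 CPM in the other 3 sIVs libraries. Without that library 10 were positive and 12 negative with a median of -0.02, and the log2 difference was 0.15 for Stoml2, 0.21 for Triap1, 0.06 for Cds1 and -0.06 for Cds2.

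The centrins, which Sfi1 binds, and genes of centriole duplication formed a list of 18. Of 16 tested, 0 were called, 5 had a positive and 11 a negative log2 difference, and the median was -0.16. Cetn2, a centrin, stood at 35.0 and 45.2 CPM (log2 difference 0.37 ± 0.23 SE), and Cetn1 was at 0 counts in all 8 libraries. Ccp110, a cap protein of centrioles, stood at 103 and 88.3 CPM (log2 difference -0.22 ± 0.23 SE). Pcnt, a scaffold of the pericentriolar material, stood at 61.4 and 50.4 CPM (log2 difference -0.28 ± 0.20 SE). Usp9x, a deubiquitinase, stood at 226 and 152 CPM (log2 difference -0.57 ± 0.52 SE). Each of these 4 tested genes was farthest from PBS in sIVs library 4, with 70.5 CPM for Cetn2 and 23.7 CPM for Usp9x. The other 3 sIVs libraries held 33.7 to 42.1 CPM of Cetn2 and 146 to 225 CPM of Usp9x. Without sIVs library 4 the list had 8 positive and 8 negative log2 differences with a median of -0.01, and the log2 difference was 0.07 for Cetn2, -0.03 for Ccp110, -0.10 for Pcnt and -0.21 for Usp9x. The summed CPM of this list ran from 710 to 803 in PBS retinas and from 433 in sIVs library 4 to 749 in sIVs retinas.

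Genes whose log2 CPM followed the same pattern over the 8 libraries were ranked by Pearson's r among 15982 genes of at least 1 CPM. For AC149090.1 the 5 highest were the pseudogenes Gm6728 (r = 0.930), Gm12112 (r = 0.925) and Rab11b-ps2 (r = 0.924), the transcript model D930036K23Rik (r = 0.900) and Rsrc1 (r = 0.896). For Pisd the r values were higher, at 0.997 for Adk, 0.994 for Car14 and Fam19a5, and 0.992 for Nr2f6 and Cdc42ep4. For Sfi1 they were Brf1 (0.950), Mbtd1 (0.943), Gm14295 (0.926), Gm48600 (0.926) and Pelp1 (0.921). These r values include the difference between the groups. With group means removed, r was 0.828 for Gm6728, 0.897 for Gm12112, 0.685 for Rab11b-ps2, 0.644 for D930036K23Rik and 0.640 for Rsrc1. It was 0.991 to 0.998 for the genes like Pisd and 0.885 to 0.970 for those like Sfi1. The points share libraries and the search took the highest of many genes, so these values are a description.

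The libraries held 13803958 to 16622259 counts. The rod marker Gnat1 was abundant, with 7809 CPM in the PBS group and 8788 CPM in the sIVs group. The 12 markers of retinal pigment epithelium and melanocytes summed to 12.6 to 69.2 CPM in the PBS libraries and 13.4 to 75.2 CPM in 3 of the sIVs libraries, but to 459 CPM in sIVs library 4. The mean gene length per count was 5263 bases in that library and 6144 to 6705 bases in the others. It was also the library with the highest Pisd and the lowest Pisd-ps1 and Pisd-ps2. Gm11399 had 3 counts there and also 3 in sIVs library 5. The part of the pigment epithelium markers and of the gene length per count in these values was not tested.

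Without sIVs library 4 the log2 differences were -0.54 for Pisd-ps1, -1.16 for AC149090.1, -0.39 for Sfi1 and -2.13 for Gm11399. The 12 markers of microglia and macrophages summed to 61.8 to 290 CPM in the PBS group and 171 to 394 CPM in the sIVs group. The 5 erythrocyte markers summed to 5.24 to 9.14 CPM in PBS and 9.37 to 26.7 CPM in sIVs libraries. The highest erythrocyte sum was in sIVs library 4, and the other sIVs libraries reached 15.4 CPM at most. Of 4 erythrocyte markers tested, 3 had a positive log2 difference and Alas2 a negative one, -0.73. Neither list was tested against Pisd, its copies or the genes of the Sfi1 locus. Lens markers stayed at 0.639 to 1.31 CPM in all libraries.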

How the data were processed

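Poly(A) RNA of 8 retina libraries was sequenced as 150-base pairs with a protocol that marks strand, per the labels' protocols. The authors deposited whole-number counts per gene, and FPKM values that equalled counts divided by listed gene length and library total, times 0.943 to 1.03 in each library. The table's length column holds exon bases, which matched GENCODE M21 for the 6 genes. Per the submitters' processing notes the genome was mm10; aligner, counter and strand setting are not given in the sources at hand. Groups came from sample titles. Genes passing filterByExpr were scaled by TMM and tested, two-sided, in edgeR 4.0.16 under R 4.3.3 by quasi-likelihood with a group term alone, and Benjamini-Hochberg adjustment ran over 17004 genes. Standard errors came from that test. The sum over copies was planned with Pisd-ps3 and ran over the 4 copies with a row. Sequences were taken from GENCODE M21 transcripts, positions of Pisd-ps3 from RefSeq (GRCm38.p6), and alignments from BLASTN 2.17.0. Alternatives used DESeq2 1.42.0, limma 3.58.1, other scalings, no filter, a block for replicate number, and fits without 1 library. Named genes were the members, neighbours within 500 kb, the 5 most like genes, and in each of 3 pathway lists the 2 of smallest p and 2 of highest CPM, with the top markers of a cell type list, not all reported here. The members and all lists were chosen with earlier results of these data known.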

Additional observations from a re-analysis of the deposited data

How the results depend on the processing

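All 15 alternatives called 0 genes: DESeq2, limma, 2 other scalings, no filter, the block and the 8 fits without a library. Values outside the spread were the log2 difference of Gm11399 on log2(FPKM + 1), -1.42, where the pseudocount exceeds some of its values; the summed copies without AC149090.1, -0.30; and the share of AC149090.1 per length, 85.5% in PBS and 79.7% in sIVs retinas. Leaving out each library in turn gave log2 differences of -0.03 to 0.22 for Pisd, which changed sign without sIVs library 4, -0.87 to -0.54 for Pisd-ps1, -0.67 to -0.21 for Pisd-ps2, -1.25 to -0.94 for AC149090.1, -0.50 to -0.33 for Sfi1, -2.54 to -1.97 for Gm11399 and -1.17 to -0.83 for the summed copies. The share of AC149090.1 ran from 90.2% to 92.0% in PBS and from 84.5% to 86.3% in sIVs retinas.

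Deviations of libraries with the same number correlated at r = 0.60, 0.02, 0.23 and 0.51 for numbers 1, 3, 4 and 5. Not every r exceeded 0.1, so the numbers were not taken as pairs. PBS libraries 1, 4 and 5 correlated best with the sIVs library of their own number, and PBS library 3 with sIVs library 5. With the replicate block 0 genes were called and 588 had an unadjusted p below 0.05. The block gave log2 differences of 0.10 for Pisd, -0.76 for Pisd-ps1, -0.48 for Pisd-ps2, -1.09 for AC149090.1, -0.43 for Sfi1, -2.23 for Gm11399 and -0.999 for the summed copies. Depth limits Gm11399 most, with 3 to 29 counts per library. The values of the pathway lists without sIVs library 4 were added after seeing the data.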

Other observations

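In 16 sets of 4 values, a library group each for the 6 genes and the copy sums and shares, none passed Dixon's critical value of 0.829 for the gap of 1 library over the range, a high bar with 4 values. The nearest were the share of AC149090.1 in PBS retinas (0.825, library 3), its CPM in sIVs retinas (0.823, library 1) and its CPM in PBS retinas (0.804, library 3). The spread of Sfi1 within groups was larger than that of 30.9% of the tested genes, that of Pisd larger than 40.8%, that of AC149090.1 larger than 65.7% and that of Gm11399 larger than 82.0%. Among genes within 2-fold of their own level, the shares were 50.6% for Sfi1, 38.3% for Pisd, 84.8% for AC149090.1 and 40.6% for Gm11399. In counts, AC149090.1 exceeded Sfi1 3.97 ± 0.821 times in PBS and 2.58 ± 0.772 times in sIVs retinas (SD, n = 4 each), and these ratios overlapped between the groups.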
